A study of Mus musculus with 12 samples.

Results

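The adult globin genes of the mouse are described here across the 4 groups of a bone marrow RNA-seq study. The set was defined by symbol, with earlier results of these data known, as Hba-a1, Hba-a2, Hbb-bs, Hbb-bt and the alpha-globin chaperone Ahsp, which makes 5 genes. The count table of 55291 gene symbols was searched for these names and 4 of the 5 were found, all of them globin genes. Ahsp is not analysed here. All 4 globin genes passed the filter on low counts and were among the 15674 genes tested.

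The libraries were made from bone marrow cells that had stayed non-adherent after about 24 hours of culture, taken from mice about 8 weeks old. Homozygous SCFA mice (STAT3Cstopfl/fl CD4Cre) received short chain fatty acids in their drinking water, and control SCFA mice received the same with a genotype labelled only as control. Homozygous untreated and control untreated mice are the same genotypes without SCFA, and each of the 4 groups holds 3 libraries. STAT3C is a constitutively active form of the transcription factor STAT3, here behind a floxed stop cassette, and CD4Cre removes such cassettes in cells that have used the Cd4 promoter, chiefly T cells. The genotype of 1 of the 6 homozygous libraries, homozygous untreated 1, is written with R26 in front of the allele. The alleles carried by control mice, the strain and the dose of SCFA are not given in the labels. The untreated libraries carry day 1 and the SCFA libraries day 30 of month 3 in their labels, so treatment and label date cannot be told apart. The labels do not say that the replicates are separate mice, and p-values measure only the spread between these libraries.

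Adult haemoglobin is a tetramer of alpha and beta chains, each holding a haem group that binds oxygen. Globin transcripts build up as erythroblasts mature in the marrow and remain in reticulocytes, so that they become some of the most abundant transcripts of the lineage. The mouse alpha genes lie in one cluster and the beta genes in another, each driven by a distant upstream enhancer region and by short promoters bound by GATA1, KLF1 and general factors. The chains are needed in balance, since free alpha chains are unstable and AHSP binds them until a beta chain is available.

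Hba-a1 lies on chromosome 11 at 32283511 to 32284465 of mm10, on the plus strand, and Hba-a2 at 32296489 to 32297298 on the same strand, 12023 bases downstream. The beta genes lie on the minus strand of chromosome 7, with Hbb-bt at 103812524 to 103813996 and Hbb-bs at 103826534 to 103828096, separated by 12537 bases. Each of the 4 is annotated as protein-coding, and the main transcript of each has 3 exons. The beta gene names are those of the reference strain. Both pairs are recent copies, and how reads that fit both copies were counted is not given in the sources used here. Of the 50-base windows in the main transcript, 439 of 650 (67.5%) in Hba-a1 and 439 of 505 (86.9%) in Hba-a2 occur in both, and 381 of 579 (65.8%) in Hbb-bs and 381 of 654 (58.3%) in Hbb-bt occur in both. The division of counts within a pair is therefore uncertain, and sums over the pair are given beside the single genes.

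The promoters are shown because the 4 genes shared much of their behaviour across the groups and because the beta copies did not move by the same amount. The sequences are the 250 bases upstream of each RefSeq start (GRCm38.p6), written 5′ to 3′ on the strand of the gene. Each RefSeq start lies inside the gene coordinates given above, so every window overlaps the annotated gene. In Hba-a1, Hba-a2 and Hbb-bt the window also overlaps the first exon of the main transcript. Capitals mark every match, on either strand, to CACCC, the core of sites for the erythroid factor KLF1, and to GATAA, the core of sites for GATA1. They also mark CCAAT, a box of many promoters where general factors bind, and ATATAA, an element that helps to place the start of transcription. The window of Hba-a2 is chr11:32296242-32296491, that of Hbb-bs chr7:103827929-103828178 and that of Hbb-bt chr7:103813924-103814173.
Hba-a2: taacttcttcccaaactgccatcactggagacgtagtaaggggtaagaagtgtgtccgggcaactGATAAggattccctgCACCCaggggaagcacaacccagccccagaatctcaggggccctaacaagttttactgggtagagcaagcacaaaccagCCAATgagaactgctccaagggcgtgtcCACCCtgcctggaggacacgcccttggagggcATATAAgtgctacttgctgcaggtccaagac
Hbb-bs: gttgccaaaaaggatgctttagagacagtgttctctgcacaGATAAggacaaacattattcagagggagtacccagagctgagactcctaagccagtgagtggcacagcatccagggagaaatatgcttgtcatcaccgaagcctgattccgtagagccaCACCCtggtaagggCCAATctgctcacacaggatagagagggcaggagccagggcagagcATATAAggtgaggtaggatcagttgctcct
Hbb-bt: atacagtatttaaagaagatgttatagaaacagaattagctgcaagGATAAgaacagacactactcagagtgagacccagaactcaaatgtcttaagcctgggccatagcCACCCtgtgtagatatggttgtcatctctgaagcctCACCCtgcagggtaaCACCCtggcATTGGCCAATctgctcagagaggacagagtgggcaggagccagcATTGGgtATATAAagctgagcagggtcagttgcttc
The Hba-a1 window, chr11:32283422-32283671, is identical to that of Hba-a2 at 247 of 247 bases once shifted by 3. The beta windows are identical at 127 of 249 bases without gaps. Each of the 4 windows holds all 4 motifs, which 0.466% of 32851 RefSeq promoter windows of the same length do. These motifs are sites of factors already named above for globin promoters, so that share is background and not a result about these genes. The alpha windows are copies of each other and not separate cases. Single motifs are commoner, with CACCC in 52.0%, CCAAT in 33.8%, GATAA in 22.6% and ATATAA in 9.10% of those windows. CACCC occurs 2 times in each alpha window, 1 time in Hbb-bs and 3 times in Hbb-bt. CCAAT occurs 1 time in each alpha window and in Hbb-bs, and 3 times in Hbb-bt, counting both strands, while GATAA and ATATAA occur 1 time in every window. No matches overlap, and a match describes the letters only.

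Together the 4 genes took 0.192% ± 0.0237 of all counts in homozygous SCFA libraries, 1.04% ± 0.0728 in control SCFA libraries, 0.745% ± 0.138 in homozygous untreated libraries and 1.67% ± 0.0833 in control untreated libraries (SD, n = 3 each). No library of one group reached the range of another. The exact 95% binomial interval of a library's share extended at most 0.00618 percentage points either way, which covers counting error only. Totals were 16954355 to 20748995 counts, and 3 counts, the limit that a count of 0 allows, were worth 0.145 to 0.177 CPM (counts scaled to the same total of 1e6 per library). Ordered by count, Hbb-bs ranked 84 to 96 among all genes in homozygous SCFA libraries and 2 to 3 in control untreated libraries. These are bulk samples, so fewer erythroid cells and less globin RNA per cell cannot be told apart.

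**Figure D1:**
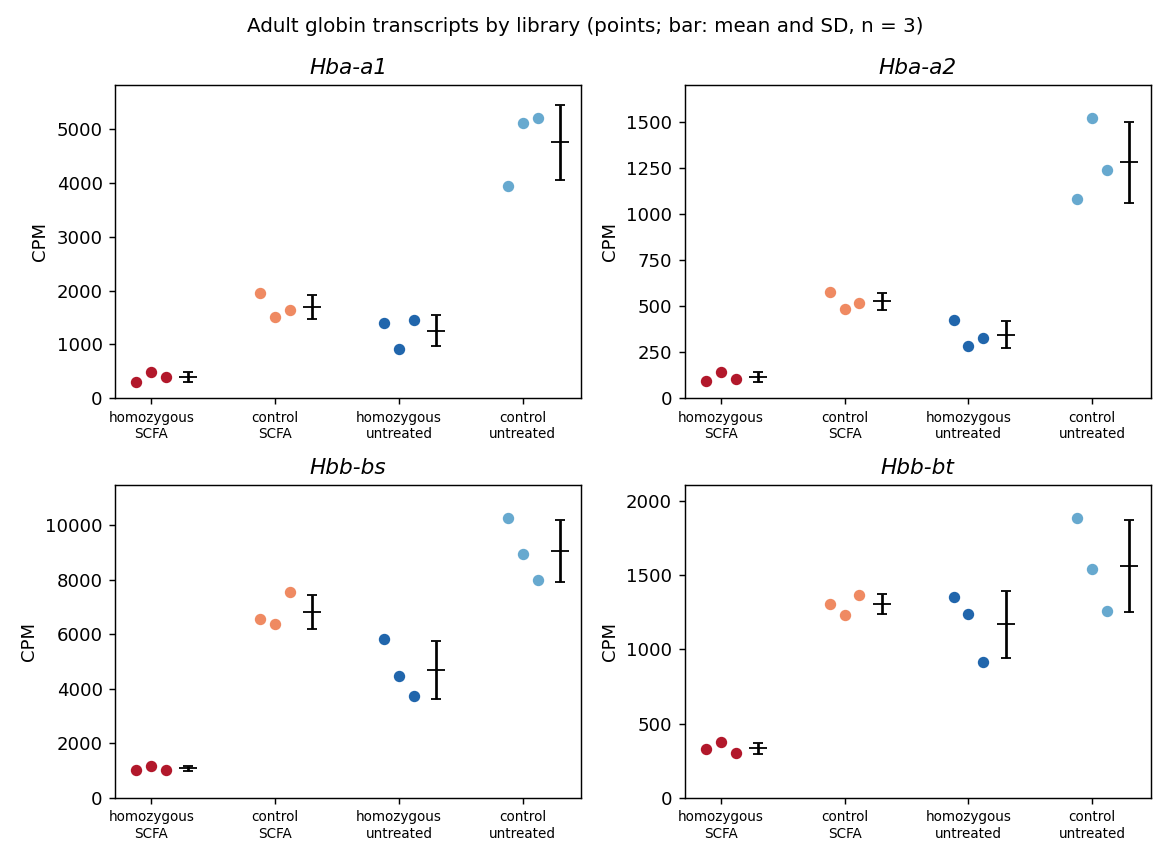
Level of each adult globin gene in CPM (vertical axes, each starting at 0) in the 12 libraries, as points, with the group mean and SD beside them (n = 3). The homozygous SCFA libraries are the lowest for every gene, and the control untreated libraries are apart from all others for the alpha genes but not for Hbb-bt.

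The alpha genes were lowest in homozygous SCFA mice, highest in control untreated mice, and fell with the genotype and with SCFA in either background. Hba-a1 stood at 301, 494 and 390 CPM in the homozygous SCFA libraries, against 1948, 1515 and 1634 CPM in the control SCFA libraries. Its level was 1400, 918 and 1449 CPM in the homozygous untreated libraries, against 3948, 5121 and 5203 CPM in the control untreated libraries. No 2 groups overlapped, and the order was homozygous SCFA, homozygous untreated, control SCFA, control untreated, with the middle groups closest (1256 ± 293 CPM in homozygous untreated and 1699 ± 224 CPM in control SCFA libraries, SD, n = 3 each, a gap larger than either SD that was not tested).

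Hba-a2, the downstream alpha copy, followed the same order. It was counted at 92.9, 143 and 105 CPM in the homozygous SCFA libraries, against 577, 484 and 515 CPM in the control SCFA libraries. In the homozygous untreated libraries it stood at 427, 281 and 327 CPM, against 1084, 1521 and 1240 CPM in the control untreated libraries. Again no 2 groups overlapped. Per kilobase of the main transcript, Hba-a1 averaged 565 and Hba-a2 205 CPM per kilobase in homozygous SCFA libraries, and 6806 and 2314 CPM per kilobase in control untreated libraries. The first exon of that transcript is annotated with 291 bases in Hba-a1 and 130 bases in Hba-a2. Part of the longer exon lies upstream of the RefSeq start, and a shorter Hba-a1 transcript would give a higher value per kilobase.

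The genotype difference without SCFA asks what the homozygous allele goes with in untreated mice. There the log2 fold change was -1.77 ± 0.19 (SE) for Hba-a1 (adjusted p = 4.0e-05, edgeR quasi-likelihood test with Benjamini-Hochberg adjustment over all genes), 3.41-fold lower, and -1.74 ± 0.18 for Hba-a2 (adjusted p = 3.6e-05). Under SCFA the genotype difference was -2.09 ± 0.19 for Hba-a1 (adjusted p = 2.7e-06), 4.26-fold lower in homozygous mice, and -2.19 ± 0.18 for Hba-a2 (adjusted p = 1.2e-06). The genotype difference did not pass the test of a change between the treatments, with an interaction of -0.32 ± 0.26 for Hba-a1 (adjusted p = 0.382) and -0.46 ± 0.25 for Hba-a2 (adjusted p = 0.191).

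The SCFA difference was also seen in both genotypes. In homozygous mice Hba-a1 was 3.24-fold lower with SCFA than without (log2 fold change -1.70 ± 0.19, adjusted p = 3.0e-05) and Hba-a2 3.10-fold lower (-1.63 ± 0.18, adjusted p = 3.2e-05). In control mice Hba-a1 was 2.60-fold lower with SCFA (-1.38 ± 0.18, adjusted p = 0.00109) and Hba-a2 2.26-fold lower (-1.18 ± 0.18, adjusted p = 0.00264). The comparisons share groups, so that the control SCFA libraries, for example, enter both the genotype difference under SCFA and the SCFA difference in control mice.

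The beta genes behaved otherwise: they fell steeply in homozygous SCFA mice, while the remaining 3 groups lay much closer together. Hbb-bs, the more abundant adult beta gene here, was counted at 1029.7, 1185 and 1031 CPM in the homozygous SCFA libraries, against 6572, 6377 and 7544 CPM in the control SCFA libraries. In the homozygous untreated libraries Hbb-bs stood at 5844, 4470.1 and 3736 CPM, against 10266, 8949 and 8009 CPM in the control untreated libraries. No 2 groups overlapped in CPM, in the order homozygous SCFA, homozygous untreated, control SCFA, control untreated. The highest control SCFA library (7544 CPM) lay just below the lowest control untreated library (8009 CPM). The tests also used TMM factors, 0.963 for the first of these libraries and 1.08 for the second. Dividing by these factors puts the first above the second, so the control groups overlap on that scale.

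Hbb-bt, the less abundant beta gene, was separated from the other groups in homozygous SCFA mice only. Its level was 329, 373 and 299.8 CPM in the homozygous SCFA libraries, against 1306, 1234 and 1369 CPM in the control SCFA libraries. The homozygous untreated libraries had 1352, 1241 and 918 CPM, against 1884, 1539 and 1262 CPM in the control untreated libraries. The ranges of these last 3 groups overlap, with means of 1303 ± 67.7 CPM in control SCFA, 1170.1 ± 226 CPM in homozygous untreated and 1562 ± 311 CPM in control untreated libraries (SD, n = 3 each).

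Without SCFA, Hbb-bs was 1.75-fold lower in homozygous mice (log2 fold change -0.81 ± 0.16, adjusted p = 0.00632), and Hbb-bt differed by -0.27 ± 0.17 (adjusted p = 0.305). When the counts of the beta copies were added up before the test, their sum differed by -0.71 in the same comparison (adjusted p = 0.0117). Under SCFA, Hbb-bs was 6.26-fold lower in homozygous mice (-2.65 ± 0.17, adjusted p = 8.3e-08) and Hbb-bt 3.87-fold lower (-1.95 ± 0.18, adjusted p = 3.7e-06). The genotype difference was larger under SCFA for both genes by the interaction test, by -1.84 ± 0.23 for Hbb-bs (adjusted p = 2.3e-04) and by -1.68 ± 0.25 for Hbb-bt (adjusted p = 8.1e-04).

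With SCFA, homozygous mice had 4.43-fold less Hbb-bs (log2 fold change -2.15 ± 0.17, adjusted p = 1.0e-06) and 3.59-fold less Hbb-bt (-1.84 ± 0.18, adjusted p = 1.0e-05) than homozygous untreated mice. In control mice the SCFA difference was -0.31 ± 0.16 for Hbb-bs (adjusted p = 0.186) and -0.16 ± 0.17 for Hbb-bt (adjusted p = 0.545). Neither passed the test. The Hbb-bs libraries of the groups do not overlap in CPM, which leaves out the TMM factors that the test used. Such a gap with a lower level holds for 23.3% of all genes tested in that comparison.

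Without SCFA, 3 of 4 globin genes were called lower in homozygous mice, where 8.13% of all genes tested were called lower and 6.69% higher. The same 3 had no overlap between the groups, which with a lower level held for 22.9% of all genes. Under SCFA 4 of 4 were called lower in homozygous mice, against 8.47% of all genes called lower and 8.89% higher, and 4 of 4 did not overlap, against 21.3%. For SCFA in control mice the count was 2 of 4, both alpha genes, against 13.0% of all genes called lower and 8.89% higher. For SCFA in homozygous mice it was 4 of 4, against 5.61% lower and 3.96% higher, and 4 of 4 did not overlap, against 15.3%. In the interaction the count was 2 of 4, both beta genes, against 11.6% of all genes called with a negative value and 13.6% with a positive one. The median over all genes tested stayed between -0.08 and 0.04 in the 5 comparisons. Leaving out any 1 of the 12 libraries changed no call on these 4 genes.

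**Figure D2:**
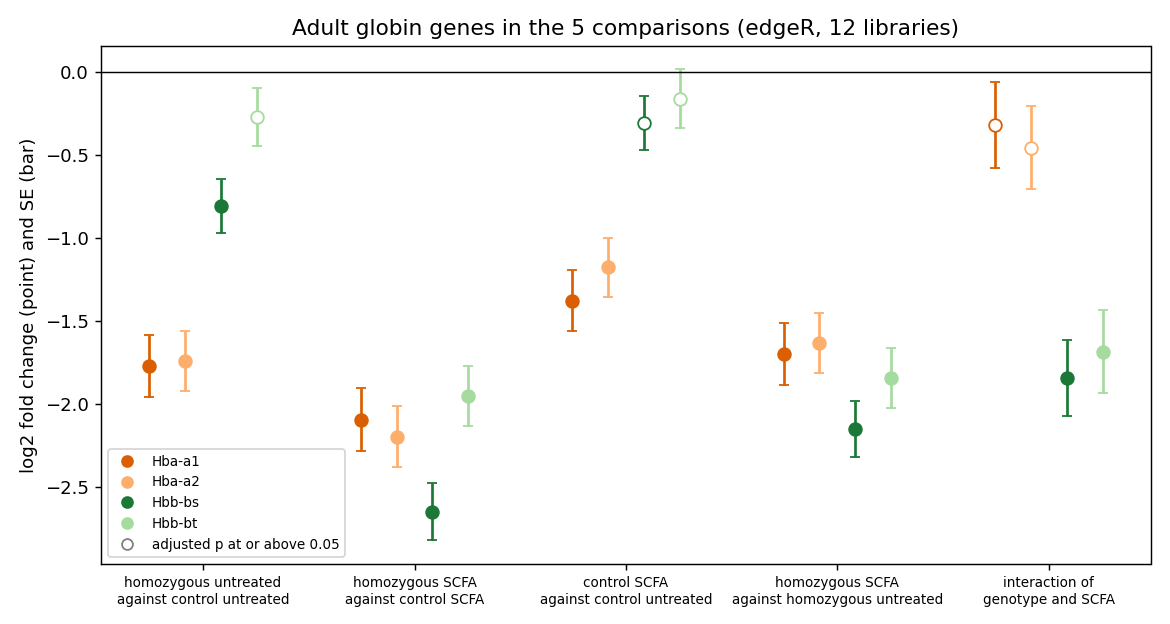
Log2 fold change with SE (vertical axis) of the 4 adult globin genes in the 5 comparisons, from the edgeR fit of 12 libraries, with open points where the adjusted p is at or above 0.05. The alpha genes lie below -1 in all 4 comparisons between groups and at -0.32 and -0.46 in the interaction, whereas the beta genes lie near 0 for SCFA in control mice and below -1.5 in the interaction.

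The balance of alpha and beta counts also differed between groups. The ratio of alpha to beta counts was 0.290, 0.409 and 0.372 in homozygous SCFA libraries, against 0.320, 0.263 and 0.241 in control SCFA libraries. It was 0.254, 0.210 and 0.382 in homozygous untreated libraries, against 0.414, 0.633 and 0.695 in control untreated libraries. The control untreated libraries stand above all others, though the lowest of them (0.414) is close to the highest homozygous SCFA library (0.409), and the other 3 groups overlap. The mean ratio was 0.581 ± 0.148 in control untreated libraries, and 0.357 ± 0.0609 in homozygous SCFA, 0.275 ± 0.0410 in control SCFA and 0.282 ± 0.0892 in homozygous untreated libraries (SD, n = 3 each). The ratio is one of read counts in poly(A) libraries, not of protein chains.

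Within the alpha pair the division of counts hardly moved, with Hba-a1 at 75.8% to 81.6% of alpha counts over the 12 libraries. Within the beta pair it did. Hbb-bt took 24.2%, 23.9% and 22.5% of beta counts in homozygous SCFA libraries, against 16.6%, 16.2% and 15.4% in control SCFA libraries. It took 18.8%, 21.7% and 19.7% in homozygous untreated libraries, against 15.5%, 14.7% and 13.6% in control untreated libraries. The homozygous libraries lie above the control libraries under either treatment, with no overlap, and the exact binomial interval of a library extends at most 0.534 percentage points. The beta copies share much of their sequence, as given above, and the part of shared reads in this division was not tested.

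**Figure D3:**
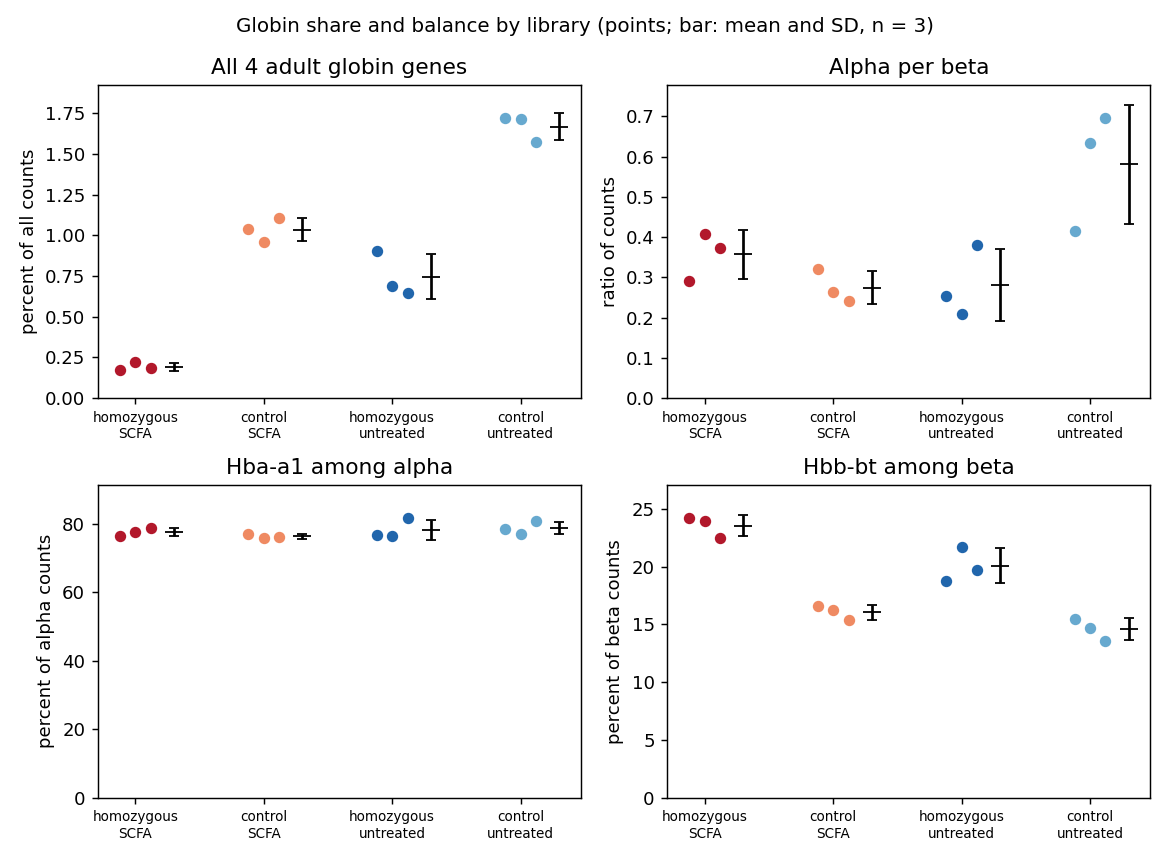
The 4 panels give, for each library (points) and as group mean and SD (n = 3), the share of all counts held by the adult globin genes, the ratio of alpha to beta counts, the share of Hba-a1 among alpha counts and the share of Hbb-bt among beta counts. The alpha division stays near 80% throughout, and the Hbb-bt share is highest in the homozygous SCFA libraries (22.5% to 24.2%).

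Of 11 other genes of the globin family, 2 had enough counts to be tested, the theta genes Hbq1b and Hbq1a, which lie in the alpha cluster. The embryonic genes Hbb-y, Hbb-bh1 and Hba-x reached at most 19, 5 and 3 counts in any library, and Mb, the muscle myoglobin gene, had 0. Hbq1b averaged 5.32 ± 1.49 CPM in homozygous SCFA, 13.1 ± 2.60 CPM in control SCFA, 19.2 ± 2.33 CPM in homozygous untreated and 29.6 ± 4.39 CPM in control untreated libraries (SD, n = 3 each). It fell with SCFA in homozygous mice (log2 fold change -1.87, adjusted p = 5.3e-05) and in control mice (-1.06, adjusted p = 0.00649). With the genotype it fell under SCFA (-1.28, adjusted p = 0.00123) and differed by -0.47 without (adjusted p = 0.127). Hbq1a was rarer, at 0.294 ± 0.229 CPM in homozygous SCFA against 3.39 ± 1.05 CPM in control SCFA libraries, and 1.28 ± 0.134 CPM in homozygous untreated against 6.32 ± 2.38 CPM in control untreated libraries (SD, n = 3 each). It fell in homozygous mice without SCFA (-2.14, adjusted p = 0.00837) and under SCFA (-3.48, adjusted p = 4.1e-04, and -4.29 without homozygous SCFA 2).

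Among transcription factors and cofactors that act at the globin loci, genes were called in both directions in 3 of the 4 comparisons between groups, and without SCFA the called genes were all lower in homozygous mice. Of 17 tested, 5 rose and 3 fell in homozygous mice under SCFA (median log2 fold change -0.16), and 0 rose and 4 fell without SCFA (median -0.22). With SCFA, 3 rose and 4 fell in homozygous mice (median -0.17), and 2 rose and 5 fell in control mice (median -0.32). Over all genes tested, 8.89% rose and 8.47% fell in homozygous mice under SCFA, and 6.69% and 8.13% without SCFA. With SCFA, 3.96% rose and 5.61% fell in homozygous mice, and 8.89% and 13.0% in control mice. These shares also stand beside the counts of the lists below, and no list was tested against them. Gata1, the master regulator of erythroid genes, averaged 32.6 ± 4.05 CPM in homozygous SCFA and 21.8 ± 0.382 CPM in control SCFA libraries (SD, n = 3 each). Its level was 22.1 ± 0.725 CPM in homozygous untreated and 29.4 ± 3.24 CPM in control untreated libraries (SD, n = 3 each). Gata1 rose with the genotype under SCFA (0.60, adjusted p = 0.00912) and differed by -0.26 without SCFA (adjusted p = 0.209). Megakaryocytes also use Gata1 and Gfi1b, and 5 megakaryocyte and platelet markers summed to 970 to 1166 CPM in homozygous SCFA and 649 to 707 CPM in control SCFA libraries. Their part in these differences was not tested.

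Klf1, an activator that binds the CACCC boxes of the beta promoters, averaged 9.78 ± 1.40 CPM in homozygous SCFA against 4.45 ± 0.913 CPM in control SCFA libraries, and 17.8 ± 2.32 CPM in homozygous untreated against 13.6 ± 4.09 CPM in control untreated libraries (SD, n = 3 each). It rose with the genotype under SCFA (1.15, adjusted p = 0.0043) and fell with SCFA in control mice (log2 fold change -1.50, adjusted p = 0.00322). Its fall with SCFA in homozygous mice (-0.89, adjusted p = 0.024) was not called without homozygous untreated 2 or 3 or homozygous SCFA 1 or 2. Its order of groups is not that of the globin genes. Bcl11a, a repressor of embryonic and fetal globin genes that is also abundant in B cells, fell in homozygous mice under SCFA (-1.70, adjusted p = 6.7e-05). It averaged 15.7 ± 2.39 CPM in homozygous SCFA and 51.6 ± 2.98 CPM in control SCFA libraries (SD, n = 3 each). Without SCFA it averaged 26.2 ± 5.62 CPM in homozygous and 43.0 ± 9.64 CPM in control libraries (SD, n = 3 each). The summed B-lineage markers given further on were also lower in homozygous mice under SCFA. They were highest in control untreated libraries, where the mean of Bcl11a was not, and their part was not tested. Gfi1b, a repressor needed in erythroid and megakaryocytic cells, rose in homozygous mice under SCFA (1.07) and had an interaction of 1.83 (adjusted p = 0.00132).

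Haem synthesis, which supplies the oxygen-binding group of haemoglobin, moved only in part. In homozygous mice under SCFA 3 of 15 genes rose and 3 fell (median 0.13), and without SCFA 2 rose and 3 fell (median -0.40). With SCFA 0 rose and 8 fell in homozygous mice (median -0.72), and 0 rose and 10 fell in control mice (median -0.68). Alas2, the erythroid form of the first enzyme of the pathway, averaged 186 ± 26.6 CPM in homozygous SCFA against 793 ± 42.5 CPM in control SCFA libraries, and 792 ± 104 CPM in homozygous untreated against 1949 ± 455 CPM in control untreated libraries (SD, n = 3 each). It fell in homozygous mice under SCFA (-2.08, adjusted p = 2.9e-07) and without (-1.14, adjusted p = 2.3e-04), with an interaction of -0.94 (adjusted p = 0.00662). Fech, which inserts iron into the ring, fell in the same comparisons by 1.22 and 0.63 on the log2 scale.

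Called haem-sensing and haemoglobin-disposal genes went both ways in the comparisons that involve homozygous SCFA mice, and were all lower in the other comparisons between groups. Of 12 tested, 3 rose and 2 fell in homozygous mice under SCFA (median 0.16), 0 rose and 5 fell without SCFA (median -0.37), 1 rose and 3 fell with SCFA in homozygous mice (median 0.00), and 0 rose and 7 fell with SCFA in control mice (median -0.69). Ppp1r15a, which restores translation after stress, fell in homozygous mice under SCFA (-0.97) and without (-0.85), the call without SCFA being lost when homozygous untreated 1 or 2 was left out. Hp, encoding the plasma protein haptoglobin that captures free haemoglobin, was higher in homozygous than in control mice under SCFA (1.10). It averaged 1370 ± 260 CPM in homozygous SCFA and 644 ± 99.99 CPM in control SCFA libraries (SD, n = 3 each). Without SCFA it averaged 956 ± 163 CPM in homozygous and 1363 ± 269 CPM in control libraries (SD, n = 3 each), so homozygous SCFA libraries stood near the control untreated level. Hmox1, which breaks down haem, stood at 122 ± 18.0 CPM in homozygous SCFA and 87.3 ± 4.61 CPM in control SCFA libraries (SD, n = 3 each). The call on this difference of 0.50 was lost without control SCFA 3 or homozygous SCFA 2. Without SCFA, Hmox1 stood at 85.9 ± 8.33 CPM in homozygous and 117 ± 10.7 CPM in control libraries (SD, n = 3 each).

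Among red cell membrane genes, more were called lower with SCFA than with the genotype, a difference that was not itself tested. With SCFA 0 of 15 rose and 12 fell in homozygous mice (median -1.62), and 0 rose and 13 fell in control mice (median -1.47). With the genotype 1 rose and 5 fell under SCFA (median -0.37), and 1 rose and 5 fell without (median -0.11). Slc4a1, the anion exchanger band 3, fell with SCFA in homozygous mice (-1.62, adjusted p = 7.7e-05) and in control mice (-1.91, adjusted p = 2.0e-04), and differed by -0.44 with the genotype under SCFA (adjusted p = 0.133). Without SCFA it fell with the genotype (-0.74, adjusted p = 0.0222), a call lost without control untreated 2 or 3 or homozygous untreated 1 or 2. Rhag, of the ammonium-transporting Rh complex, rose with the genotype under SCFA (0.84) and without (1.03), while Epb42, a membrane skeleton protein, fell with SCFA by 2.35 in homozygous and by 1.53 in control mice on the log2 scale.

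The stage lists moved apart in homozygous SCFA mice. Of 10 late erythroblast and reticulocyte genes, 1 rose and 8 fell with the genotype under SCFA (median -1.10), and 1 rose and 9 fell with SCFA in homozygous mice (median -1.65). Of 7 progenitor genes, 4 rose and 0 fell with the genotype under SCFA (median 0.99), and 4 rose and 1 fell with SCFA in homozygous mice (median 0.92). Without SCFA 0 late genes rose and 6 fell with the genotype (median -0.46), beside 2 progenitor genes that rose and 2 that fell (median -0.31). With SCFA in control mice 0 late genes rose and 8 fell (median -1.12), and 0 progenitor genes rose and 1 fell (median -0.58).

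Among the late genes, Bpgm, which makes the red cell metabolite that lowers the oxygen affinity of haemoglobin, averaged 132 ± 7.43 CPM in homozygous SCFA against 708 ± 16.5 CPM in control SCFA libraries, and 601 ± 37.3 CPM in homozygous untreated against 1244 ± 138 CPM in control untreated libraries (SD, n = 3 each). Its interaction was -1.51 (adjusted p = 1.8e-05). Tent5c, a poly(A) polymerase, and Xpo7, a nuclear export receptor of maturing erythroblasts, fell in homozygous mice under SCFA by 1.93 and 1.45 on the log2 scale. Hemgn, the late gene that went the other way, rose by 1.62 (adjusted p = 0.0178).

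Among the progenitor genes, Car1, a carbonic anhydrase of early erythroid cells, averaged 49.5 ± 6.70 CPM in homozygous SCFA against 0.473 ± 0.777 CPM in control SCFA libraries, and 7.25 ± 0.566 CPM in homozygous untreated against 0.858 ± 0.845 CPM in control untreated libraries (SD, n = 3 each). In each control group at least 1 library had 0 counts, so the fitted differences of 6.67 ± 0.81 under SCFA (adjusted p = 6.6e-05) and 3.24 ± 0.75 without (adjusted p = 0.0129) depend on single libraries. Without control SCFA 2 the difference under SCFA was 10.60. Without SCFA the difference was 4.24 without control untreated 1, 2.60 without control untreated 3 and 6.62 with limma-voom, and DESeq2 did not call it (3.22, adjusted p = 0.0935). Apoe, which progenitors share with macrophages, rose in homozygous mice under SCFA (1.34), as did Aqp1, a water channel (1.85), and Gata2, a factor of early progenitors (0.99). Without SCFA, Apoe (-1.18, adjusted p = 8.4e-04) and Aqp1 (-1.10, adjusted p = 0.0319) were instead lower in homozygous mice. This call on Aqp1 was lost in 6 of the 12 fits that left out a library. Cd34, a surface protein of early progenitors, rose with the genotype without SCFA (0.74, adjusted p = 0.00192) and fell with SCFA in homozygous mice (-0.74, adjusted p = 0.00166). Macrophages, megakaryocytes and mast cells share some of the genes that rose under SCFA. Csf1r, the macrophage growth factor receptor, averaged 654 ± 73.7 CPM in homozygous SCFA and 339 ± 30.8 CPM in control SCFA libraries, and C1qa, a macrophage complement gene, 17.6 ± 3.04 and 10.4 ± 0.819 CPM in the same groups (SD, n = 3 each). Pf4, of platelets, averaged 479.9 ± 63.6 CPM in homozygous SCFA and 249.7 ± 13.4 CPM in control SCFA libraries, and Fcer1a, of basophils and mast cells, 74.0 ± 5.66 and 30.9 ± 6.96 CPM in the same groups (SD, n = 3 each). Their part in these differences was not tested. Epor, the erythropoietin receptor, passed no comparison in the edgeR fit, at 4.74 ± 1.61 CPM in homozygous SCFA, 2.84 ± 0.949 CPM in control SCFA, 4.28 ± 2.27 CPM in homozygous untreated and 5.86 ± 1.36 CPM in control untreated libraries (SD, n = 3 each).

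**Figure D4:**
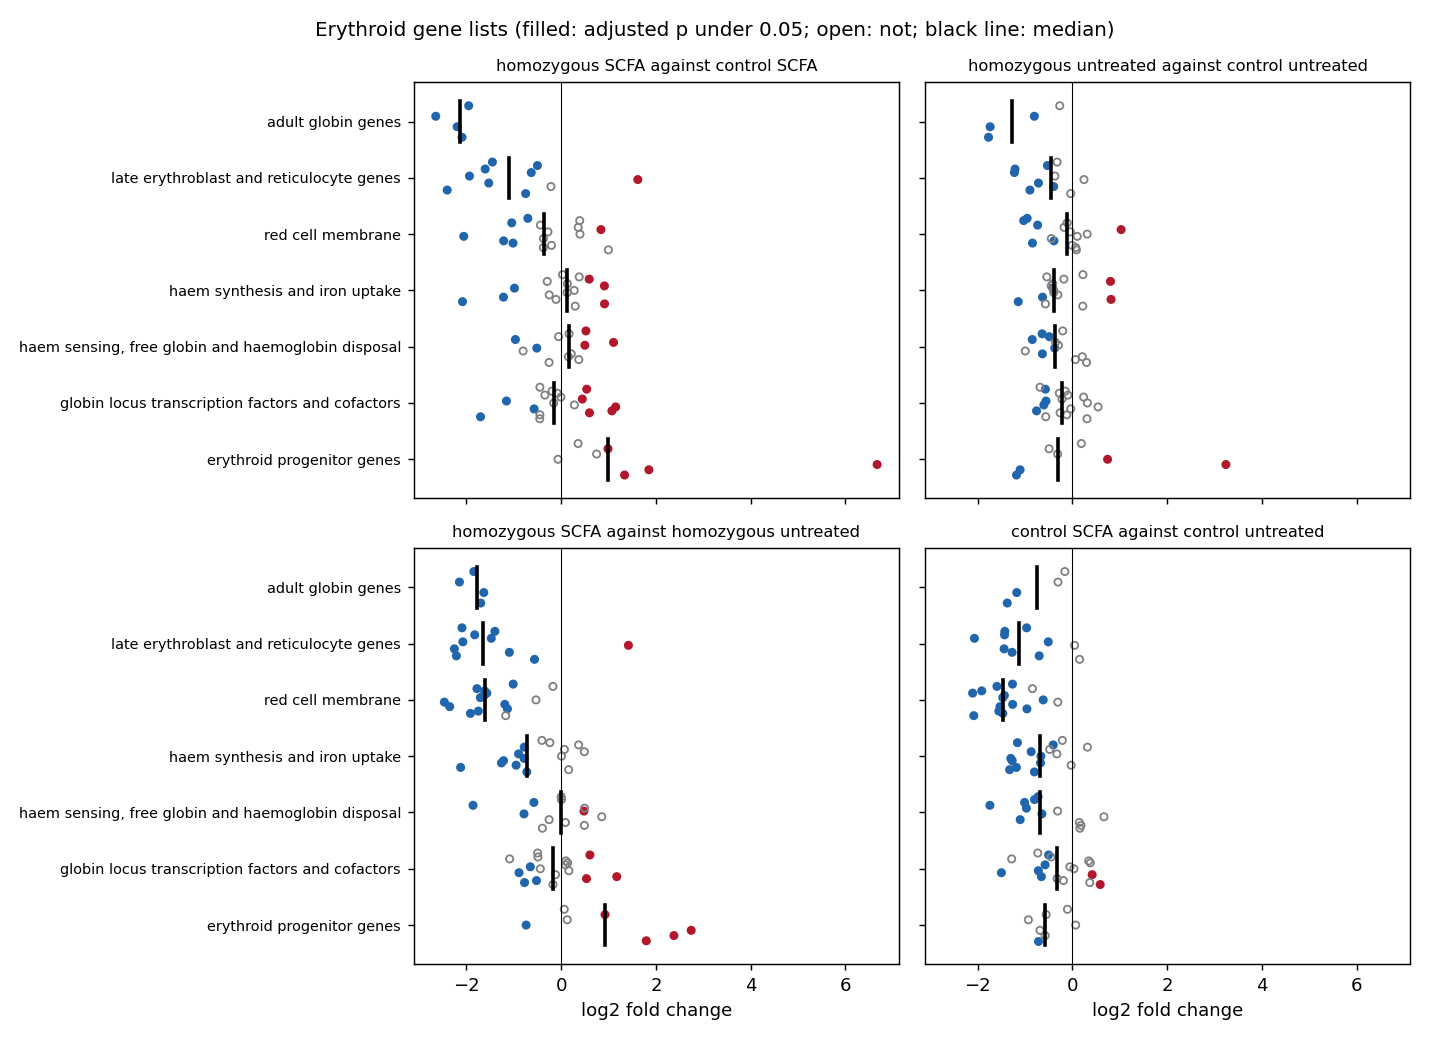
Log2 fold change (horizontal axis) of each tested gene of the erythroid lists in the 4 comparisons between groups, filled where the adjusted p is under 0.05 and with a black line at the median of the list. In homozygous SCFA mice the late genes lie mostly left of 0 and 4 progenitor genes right of 0, whereas in control mice with SCFA nearly all called genes lie left of 0.

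The genes whose pattern over the 12 libraries was most like the mean of the globin genes were Bpgm, Cox6a2, Lef1, Alas2, Ube2l6, Tfdp2, Otub2 and Isg20, among 9573 genes with at least 5 CPM on average. Likeness was the root mean square difference of mean-centred log2(CPM + 0.5), which was 0.190 for Bpgm, 0.233 for Cox6a2, 0.245 for Lef1 and 0.255 for Alas2, and up to 0.311 for Isg20. With Pearson correlation in its place, 4 of these 8 genes were named again. Lef1, a factor of lymphoid cells, averaged 3.12 ± 0.559 CPM in homozygous SCFA, 22.8 ± 1.22 CPM in control SCFA, 12.7 ± 1.15 CPM in homozygous untreated and 30.9 ± 6.09 CPM in control untreated libraries (SD, n = 3 each). Its order of groups was that of the globin genes, which follows from its being ranked by likeness to them over these same libraries.

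**Figure D5:**
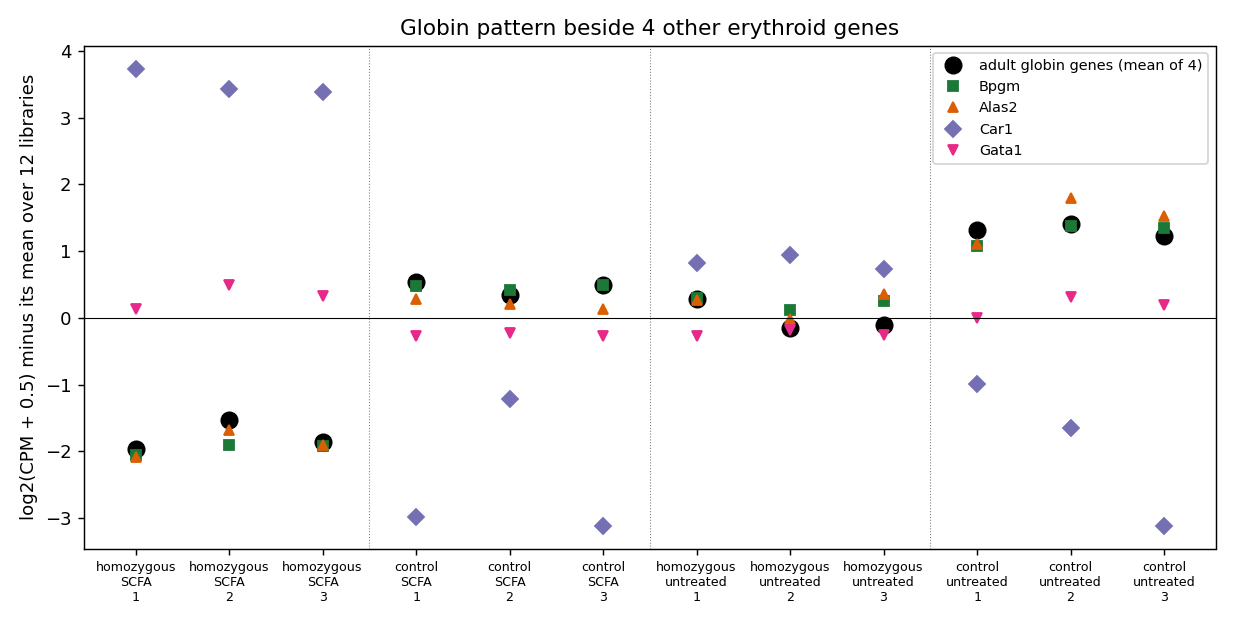
Mean-centred log2(CPM + 0.5) in each of the 12 libraries (horizontal axis, by group) for the mean of the 4 globin genes and for Bpgm, Alas2, Car1 and Gata1, the last pair chosen after their values were seen. Bpgm and Alas2 are among the genes ranked most like the globin mean over these same libraries, so their closeness to it follows from that ranking. Cox6a2 and Lef1, ranked between them, are not drawn. Car1 is highest in the homozygous SCFA libraries. Gata1 has the narrowest range of the series drawn, with the homozygous SCFA libraries (0.13 to 0.49) above the control SCFA libraries (-0.27 to -0.22).

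Summed markers of other marrow cells also differed between the groups, some in the order of the globin genes and some in other orders. The summed level of 6 B-lineage markers was 89.0 to 108 CPM in homozygous SCFA and 910 to 1006 CPM in control SCFA libraries, and 320 to 375 CPM in homozygous untreated and 1059 to 1350 CPM in control untreated libraries. This is the order of groups that the globin genes had by their means, though Hbb-bt set only the homozygous SCFA group apart. The 8 neutrophil markers summed to 53196 to 60911 CPM in homozygous SCFA, 53106 to 54117 CPM in control SCFA, 50896 to 66249 CPM in homozygous untreated and 35711 to 50424 CPM in control untreated libraries, each above the summed erythroid markers of the same library. Megakaryocyte and platelet markers were highest in homozygous SCFA libraries, at the 970 to 1166 CPM given above, with 456 to 563 CPM in homozygous untreated and 494 to 546 CPM in control untreated libraries. The 6 monocyte and macrophage markers summed to 2099 to 2399.6 CPM in homozygous SCFA and 1549 to 1653 CPM in control SCFA libraries, and to 1966 to 2278 CPM in homozygous untreated and 1499 to 1768 CPM in control untreated libraries. The 6 markers of iron-recycling macrophages summed to 853 to 958 CPM in homozygous SCFA and 912 to 984 CPM in control SCFA libraries, and to 805 to 822 CPM in homozygous untreated and 771 to 869.9 CPM in control untreated libraries. The 6 T cell markers, of the lineage in which CD4Cre is chiefly active, summed to 21.5 to 24.2 CPM in homozygous SCFA and 29.4 to 32.0 CPM in control SCFA libraries, and to 28.8 to 32.3 CPM in homozygous untreated and 36.9 to 47.6 CPM in control untreated libraries. The 5 eosinophil, basophil and mast cell markers summed to 1157 to 1360 CPM in homozygous SCFA and 915 to 965 CPM in control SCFA libraries, and to 1389 to 1685 CPM in homozygous untreated and 1530 to 2045 CPM in control untreated libraries. The 6 erythroid markers summed to 465 to 526 CPM in homozygous SCFA, 1659 to 1722 CPM in control SCFA, 2014 to 2215 CPM in homozygous untreated and 3067 to 3930 CPM in control untreated libraries. In this sum homozygous untreated libraries stood above control SCFA libraries, whereas the globin means had these groups in the reverse order. The labels call the cells progenitors, and the progenitor marker Kit averaged 64.6 CPM in homozygous SCFA, 51.0 CPM in control SCFA, 60.5 CPM in homozygous untreated and 59.2 CPM in control untreated libraries. Cd34 averaged 47.8 CPM in homozygous SCFA, 50.6 CPM in control SCFA, 78.3 CPM in homozygous untreated and 51.9 CPM in control untreated libraries. No marker on these lists was at 0 in every library of a group. The part of cell composition in the globin differences was not tested.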

How the data were processed

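RNA was measured in 12 libraries of cultured, non-adherent marrow cells, prepared with an RNeasy Plus Micro kit and a low-input poly(A) protocol, per the labels' protocols. The submitters' processing notes name STAR, featureCounts and mm10. Neither the versions nor the annotation, the strand setting or the treatment of reads with several matches is stated there. The authors deposited whole-number counts per gene symbol, without normalization, and 22077 of 55291 rows had 0 counts in every library. Without a strand setting, reads of overlapping antisense genes cannot be told apart.

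Tests on these counts used the quasi-likelihood F test of edgeR 4.0.16 under R 4.3.3 (TMM factors, filterByExpr by group). One model held the 4 groups and their 12 libraries, and p-values were adjusted over the 15674 genes kept. A gene was called at an adjusted p under 0.05. CPM values are counts divided by a library's total and multiplied by 1e6. Overlap between groups was read from CPM, without the TMM factors. Coordinates come from GENCODE M21 on mm10. Replicates of a group differed by more than counting noise (chi-square per degree of freedom 11.7 to 88.7).

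Named genes are the globin genes, up to 4 genes per list and comparison with the smallest p, 8 erythroid genes in every comparison and the 8 genes most like the globin genes, of which the text prints a part. The values of 1 named gene, which stays in the counts of its list, are not reported here. The members and lists were chosen with earlier results of these data known. On simulated counts of 15674 genes, 2 of 130 calls were false for genotype without SCFA, where 52 of 100 genes with a 2-fold and 76 of 100 with a 4-fold change were recovered. For SCFA in control mice 8 of 117 calls were false, and 40 and 69 of 100 were recovered at these sizes. For the interaction 4 of 80 calls were false, and 15 and 61 of 100 were recovered. False calls were 6 of 130 for genotype under SCFA and 5 of 121 for SCFA in homozygous mice. Alternatives were RLE factors, no filter, DESeq2 1.42.0, limma-voom with quality weights per library (limma 3.58.1), only the libraries compared and a replicate block. Further alternatives were added copies, globin genes left out of library totals, plain totals (chosen after seeing the data) and each library left out. All limma-voom values given here used these weights.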

Additional observations from a re-analysis of the deposited data

Results flagged for a closer look

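The genotype difference of Hbb-bs and of Hbb-bt was not the same with and without SCFA, by edgeR's quasi-likelihood test of the interaction. For Hbb-bs the log2 fold change, homozygous over control, was -2.65 under SCFA and -0.81 without, an interaction of -1.84 (adjusted p = 2.3e-04). For Hbb-bt it was -1.95 under SCFA and -0.27 without, an interaction of -1.68 (adjusted p = 8.1e-04). Over the 21 alternatives the interaction ranged between -1.96 and -1.65 for Hbb-bs and between -1.91 and -1.51 for Hbb-bt. These ranges include the sum of the beta copies, entered under both genes. The summed B-lineage markers were also lower under SCFA, at 89.0 to 108 CPM in homozygous and 910 to 1006 CPM in control SCFA libraries. They were lower without SCFA too, at 320 to 375 CPM in homozygous untreated and 1059 to 1350 CPM in control untreated libraries. In that comparison Hbb-bt did not pass the test (adjusted p = 0.305). The 6 erythroid markers summed to 465 to 526 CPM in homozygous SCFA and 1659 to 1722 CPM in control SCFA libraries. Without SCFA they summed to 2014 to 2215 CPM in homozygous and 3067 to 3930 CPM in control libraries. Bpgm and Alas2 also had called interactions, of -1.51 and -0.94. Of 10 late genes 0 had a positive and 5 a negative called interaction, and of 15 haem synthesis genes 4 and 5. The part of these genes and markers in the result was not tested.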

How the results depend on the processing

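The number of globin genes called was 3, 4, 2, 4 and 2 (genotype in untreated mice, genotype in SCFA mice, SCFA in control mice, SCFA in homozygous mice, interaction) with each library left out as with all 12. Of 436 values of the 4 genes under other settings, 434 kept their direction and their side of the threshold. With the copies of a pair added up, the sum was entered under both genes. An exception was such a sum, that of the beta copies for genotype without SCFA, called at -0.71 (adjusted p = 0.0117). Hbb-bt by itself was called under no setting in that comparison. The other exception was Hbb-bt for SCFA in control mice, at 0.018 with limma-voom. For the other named genes 3010 of 3162 values were unchanged in this sense, 116 lost and 33 gained a call, and 3 turned their sign. All 3 were of Epor for SCFA in homozygous mice (-0.16 to 0.64 with a library left out).

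Counts over all genes moved more. Genotype without SCFA gave 2323 calls, against 914 with the 6 libraries alone, 3922 with limma-voom, and 770 to 4333 with a library left out. Genotype under SCFA gave 2722, against 4762 with limma-voom and 1431 to 3282 with a library left out. SCFA in control mice gave 3432, against 2035 with the 6 libraries alone and 613 to 5090 with a library left out. SCFA in homozygous mice gave 1501, against 2988 with limma-voom, 2276 with DESeq2 and 743 to 1998 with a library left out. The interaction gave 3938, and 2455 to 5379 with a library left out. Likeness by Pearson correlation named 4 of the 8 genes again. The causes were not tested.

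Replicate numbers did not pair the libraries: over 18 pairs with the same number the deviations correlated between -0.11 and 0.11, with 1 pair over 0.1. With the number as a block the calls were 2067, 2447, 3249, 1282 and 3715, in the order of comparisons above, and the block changed no call on a globin gene. Depth did not limit the globin genes, while Hbq1a, with 3 to 11 counts in homozygous SCFA libraries, is close to the limit.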
